A study of Mus musculus with 2 samples.

Results

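The normal-diet-only gene-end peaks are the places next to genes where the vitamin D receptor (VDR) list of the normal-diet heart had a peak and the list of the vitamin D deficient heart had none nearby. Members were normal-diet peaks on the autosomes and X with no deficient-diet peak within 1 kb, edge to edge, and with the summit (the highest point of the peak) within 1 kb of either end of a RefSeq gene span. Fixed bins of 100 kb that held 10 or more peaks of either list were left out. This gave 2815 members of the 23456 normal-diet peaks. The deficient-diet list held 37661 peaks. Presence in one list and absence from the other chose the members, so neither is a result below.

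Both samples were left ventricle of mouse embryos at stage E16.5, counted in days of gestation. In the first, the mothers had eaten a normal diet. In the second, they had eaten a diet deficient in vitamin D. Each diet has 1 library of chromatin immunoprecipitated for VDR (ChIP-seq), so values describe 2 libraries, with no replicate spread and no test between diets. The number of reads behind each list is not given in the sources used here. The labels give neither strain, sex nor the number of embryos behind a library, and a peak list holds no expression with which to check the tissue.

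VDR is a nuclear receptor that carries out the genomic effects of the hormone form of vitamin D. With its partner, the retinoid X receptor, it binds pairs of a short hexamer in DNA, and the best known arrangement is the direct repeat DR3. Promoters are the stretches around gene starts where transcription begins, and in mammals many of them are rich in the dinucleotide CpG and carry sites for widely expressed factors of the ETS, Sp1 and NF-Y families.

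The 6 strongest members whose summit fell on the promoter sequence of a protein-coding gene are shown first, because they let the base composition and the motifs described below be seen directly. Each line gives the 250 bases before the gene's first base in RefSeq (GRCm38.p6, the same build as mm10), read 5′ to 3′ along the gene. Capitals mark, on either strand, the GC box GGGCGG, the CCAAT box and the single receptor hexamers AGGTCA and AGTTCA.
Ormdl1 promoter, chr1:53296845-53297094, plus strand: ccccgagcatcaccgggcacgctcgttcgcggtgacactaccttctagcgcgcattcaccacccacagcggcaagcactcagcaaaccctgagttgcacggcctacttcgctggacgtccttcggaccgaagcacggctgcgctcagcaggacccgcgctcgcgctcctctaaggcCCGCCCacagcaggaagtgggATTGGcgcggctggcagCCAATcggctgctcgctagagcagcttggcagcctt
Aldh1l1 promoter, chr6:90550543-90550792, plus strand: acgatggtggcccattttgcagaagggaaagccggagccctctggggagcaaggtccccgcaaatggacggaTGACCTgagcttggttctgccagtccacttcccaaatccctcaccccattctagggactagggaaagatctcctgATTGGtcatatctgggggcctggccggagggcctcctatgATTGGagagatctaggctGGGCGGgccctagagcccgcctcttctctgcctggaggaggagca
Zpbp2 promoter, chr11:98550847-98551096, plus strand: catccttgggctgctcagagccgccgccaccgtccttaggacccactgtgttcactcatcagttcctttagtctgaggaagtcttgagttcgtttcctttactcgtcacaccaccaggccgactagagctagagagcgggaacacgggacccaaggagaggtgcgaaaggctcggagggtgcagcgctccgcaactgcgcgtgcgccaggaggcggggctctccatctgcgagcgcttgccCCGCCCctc
Tubd1 promoter, chr11:86544741-86544990, plus strand: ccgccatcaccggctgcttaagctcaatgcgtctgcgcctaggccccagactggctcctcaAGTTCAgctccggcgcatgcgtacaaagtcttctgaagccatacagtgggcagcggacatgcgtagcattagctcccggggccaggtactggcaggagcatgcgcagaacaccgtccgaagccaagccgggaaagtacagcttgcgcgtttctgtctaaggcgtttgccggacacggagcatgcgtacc
Nipal4 promoter, chr11:46166360-46166609, minus strand: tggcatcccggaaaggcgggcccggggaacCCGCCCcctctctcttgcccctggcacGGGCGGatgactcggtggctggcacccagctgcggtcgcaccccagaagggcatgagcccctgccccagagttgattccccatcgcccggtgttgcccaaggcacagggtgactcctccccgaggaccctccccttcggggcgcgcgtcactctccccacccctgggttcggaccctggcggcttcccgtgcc
Def6 promoter, chr17:28207528-28207777, plus strand: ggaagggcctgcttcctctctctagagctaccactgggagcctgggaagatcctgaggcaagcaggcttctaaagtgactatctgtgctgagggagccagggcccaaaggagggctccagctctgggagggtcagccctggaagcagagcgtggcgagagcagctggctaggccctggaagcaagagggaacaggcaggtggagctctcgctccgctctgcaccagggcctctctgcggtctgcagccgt

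Ormdl1, a regulator of sphingolipid synthesis, had its summit 167 bp before the start, with 23 fragments over a background of 2.87. Its printed stretch holds 1 GC box and 2 CCAAT boxes close to the start, and the 300-base promoter holds 28 CpG. Aldh1l1, an enzyme of folate metabolism, had its summit 31 bp past the start, with 22 fragments over 2.65, and its stretch holds 1 GC box, 2 CCAAT boxes and 1 hexamer AGGTCA. Its 300-base promoter holds only 9 CpG. Zpbp2, known for a role in sperm, had 22 fragments over 2.65, with the summit 20 bp before the start and 26 CpG in the promoter. Tubd1, which encodes delta-tubulin, had 22 fragments over 2.79, with 1 hexamer AGTTCA and 21 CpG. Nipal4 had 22 fragments over 2.94, with 2 GC boxes and 23 CpG. Def6, a guanine nucleotide exchange factor of immune cells, had 24 fragments over 2.87, with 9 CpG in the 300-base promoter and none of the marked motifs in its stretch. None of the 6 held a DR3 element, an ETS core, an NRF1 core, a cAMP response element, an E box or a TATA box before the start.

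Heights of single members come next. The pileup is the number of fragments over the summit, recovered from the authors' fold enrichment and -log10 p. The median member had a pileup of 16 fragments, the middle 80% ran from 14 to 20, and the whole range from 11 to 243. Gene-end peaks with a deficient-diet peak within 1 kb, 1912 in number, had the same median of 16 and the same span of 14 to 20, but 42 of them (2.2%) had 26 fragments or more, against 11 members (0.391%). The authors' -log10 q (the p-value adjusted for multiple testing) had a median of 4.28 in members and 4.87 in those 1912 peaks, and reached 5 or more in 30.8% (exact 95% interval 29.1 to 32.5%) and 39.1% (36.9 to 41.3%). Members were 228 bp wide at the median, against 255 bp. The rule measures from peak edges, so width enters it, and the rule may fix part of this gap. Intervals here and below cover counting error only.

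**Figure D1:**
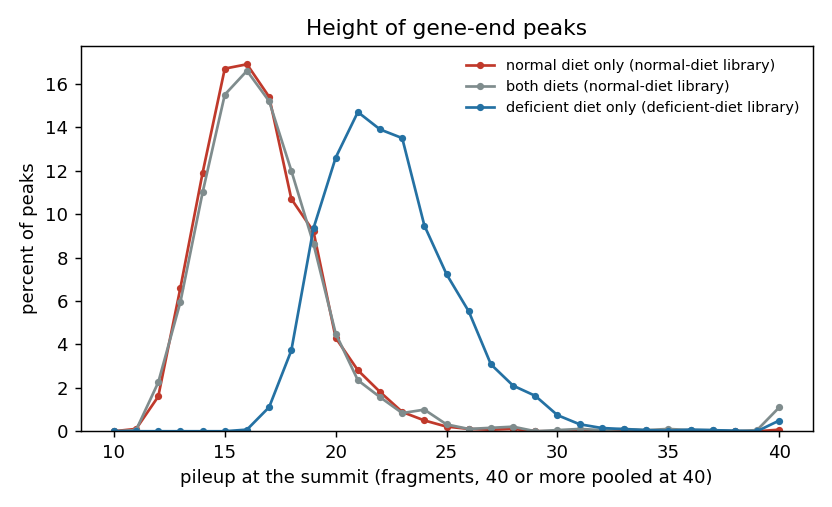
Percent of gene-end peaks (vertical) at each summit pileup in fragments (horizontal, 40 or more pooled) for the 3 groups, with no error bars because each diet has 1 library. Members and peaks of both diets, both read in the normal-diet library, have medians of 16, and peaks of the deficient diet only, read in the deficient-diet library, have a median of 22.

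The genome-wide background of the normal-diet library was 2.65 fragments, and the local background was no higher in 44.6% (42.7 to 46.4%) of members, against 53.6% (51.3 to 55.9%) of the gene-end peaks of both diets and 55% of the 9199 normal-diet-only peaks away from gene ends. The deficient-diet library had a genome-wide background of 5.38 fragments, and the lowest pileup it called there was 16, a ratio of 2.97. The lowest ratio of pileup to background among members was 2.81 and the median 5.45. The deficient-diet pileup at the members was not analysed here, and the part of the difference in background between the libraries in the absence of a deficient-diet peak was not tested.

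The member with the highest -log10 q, 38.2, lay on chromosome 9 from 123461862 to 123462095, 661 bp inside the far end of Lars2 (gene 102436), the mitochondrial leucyl-tRNA synthetase. It had 243 fragments, but over a background 32.6 times the genome-wide value, for a fold enrichment of 2.79. Spocd1, needed for DNA methylation guided by small RNAs in the male germ line, was next with a -log10 q of 34.7. Its peak, on chromosome 4 from 129957626 to 129957903 and 627 bp from an end of the gene, stood at 45 fragments over the genome-wide background, a fold enrichment of 12.6, with a deficient-diet peak 2064 bp away. Below these a tie of 3 peaks had 28 fragments, a fold enrichment of 7.94 and a -log10 q of 15.4. One was 686 bp past the start of Cers5, a ceramide synthase, on chromosome 15 from 99771707 to 99771974. Another was 415 bp before the start of 1700037C18Rik and 451 bp before that of the long noncoding RNA gene Gm41410. The other one was 102 bp before the start of the noncoding gene Gm2885.

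The other 7 of the 12 strongest members had 24 to 26 fragments. A peak of 26 fragments lay between the starts of Fam229a and Tssk3, the latter a kinase of the testis, which overlap on opposite strands, 159 and 381 bp into each. Casp8, the initiator caspase of death receptor signalling, and Sidt1 had 25 fragments each, 566 and 735 bp past the start. Fbxl22, an F-box protein of the sarcomere, had 25 fragments 268 bp past its start, and the same peak lay 314 bp beyond the far end of Usp3. The last 3 were at a 5S ribosomal RNA gene, n-R5s141, and at the noncoding genes Gm39159 and Gm40639. Outside the first pair, then, the strongest members were less than a factor of 2 above the median height of 16.

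Summits sat at gene starts far more often than at far ends. Strand was known for a gene next to 1995 members. Of these, 1588 had the summit within 1 kb of a start, 79.6% (77.8 to 81.3%), and 518 within 1 kb of a far end, 26%, with 111 near both. Every gene has 1 start and 1 far end, and the ratio was 3.07. It was 3.29 for peaks of both diets, with 82.1% (79.9 to 84.1%) at starts, and 2.04 for the 4055 gene-end peaks of the deficient diet only, with 71.2% (69.4 to 72.9%). Restricted to members at the genome-wide background, the share at starts was 72.6% (69.5 to 75.6%). Of all protein-coding genes of known strand, 8.43% had a member at the start and 2.34% at the far end.

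Around the start the summits were not symmetric. The nearest start lay upstream of the summit or at it in 74.1% (71.9 to 76.3%) of the 1588 members, with a median of 198 bp into the gene. The fullest step of 100 bp ran from 100 to 200 bp past the start and held 13.1% of them, while the step from 900 to 1000 bp before it held 0.819%. A distance of 250 bp or less was found for 700 members, 44.1% (41.6 to 46.6%). Far ends differed, with 15.1% (12.1 to 18.4%) within 250 bp and a low point of 0.772% in the first 100 bp beyond the end. Peaks of both diets and of the deficient diet only had much the same profile, with medians of 225 and 189 bp into the gene.

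**Figure D2:**
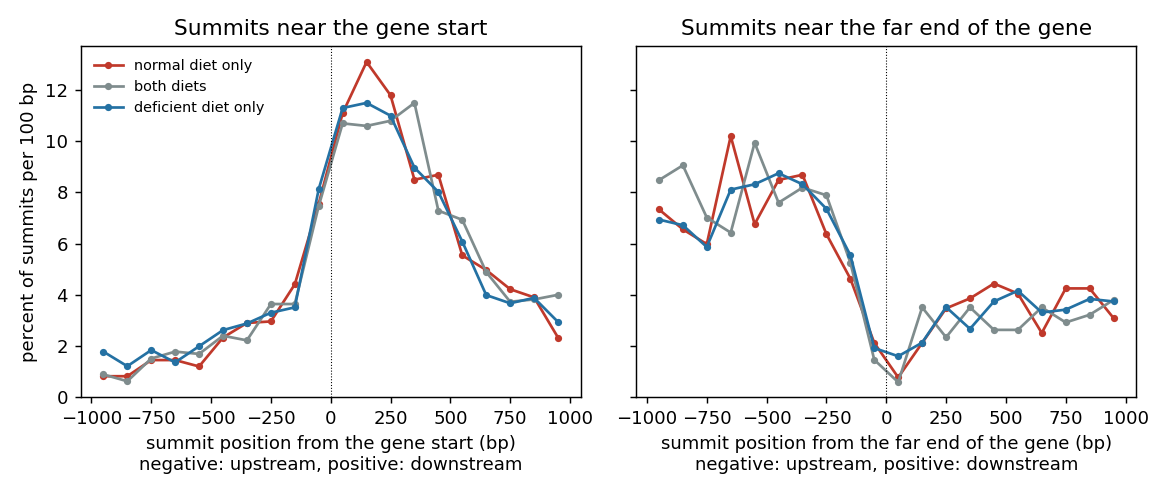
Percent of summits (vertical) in steps of 100 bp from the nearest gene start and the nearest far end (horizontal, bp, positive along the gene) for the 3 groups of gene-end peaks, counts of 1 library each. Member summits collect in the first 500 bp of the gene, with 13.1% between 100 and 200 bp, and thin out at the far end itself.

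Some members lay near starts on both strands. Of members near a start, 298, or 18.8% (16.9 to 20.8%), lay within 1 kb of starts on both strands, as did 16.9% (14.7 to 19.2%) of peaks of both diets and 13.6% (12.1 to 15.2%) of those of the deficient diet only. Of all genes of known strand, 14.9% have an opposite start within 1 kb of their own. That share counts genes, not peaks, and over a narrower window than 1 kb either side of a summit. It is therefore no matched background. One member of 21 fragments lay 430 bp before the start of Mrpl32, of the mitochondrial ribosome. The same summit lay 225 bp past the start of Psma2, of the proteasome. The Ormdl1 member lay 103 bp past the start of Pms1, a mismatch repair gene. One with 20 fragments on chromosome 13 lay 521 bp before the start of the histone gene H2ac22 and 286 bp past that of H2bc22.

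The members touched 3238 genes, 6.53% of all genes of the autosomes and X, among them 2208 protein-coding genes, 10.2% of that class (9.81 to 10.6%). For comparison, 6.93% of protein-coding genes had a gene-end peak of both diets and 12.6% one of the deficient diet only. Long noncoding RNA genes had a member in 4.75% (4.39 to 5.13%) and pseudogenes in 2.47% (2.17 to 2.79%). Most members, 2224, were next to 1 gene, 562 were next to 2, and 29 next to 3 or more. A protein-coding gene was among them for 2056 members, or 73.0% (71.4 to 74.7%). Such genes had a median span of 20.3 kb, against 17.3 kb for all protein-coding genes.

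A member did not make a gene free of deficient-diet peaks. Of the 2208 protein-coding genes, 966, or 43.8% (41.7 to 45.8%), held a deficient-diet summit elsewhere in the span or within 1 kb of it, where 47.2% of all protein-coding genes did. At 206 of them (9.33%) that summit was itself within 1 kb of an end, against 19.2% of all protein-coding genes, a gap that the rule for members partly fixes. The nearest deficient-diet peak was 16282 bp from a member at the median. It was within 5 kb of 564 members and beyond 50 kb for 561 (19.9%).

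Several members at 1 gene were rare. At least 2 were found at 197 genes and 3 at 4 genes. Gna15, a G protein alpha subunit of blood cells, had 2 close together past its start, with 18 and 14 fragments, and 1 of 17 fragments near its far end. Zfp768, a zinc finger gene, had 17 fragments 775 bp past the start and 15 and 12 near the far end. N4bp3 had 16 fragments past the start and 14 in both peaks near the far end. The other gene was the noncoding Gm35196, with 18, 13 and 15 fragments.

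Promoter sequence was independent of the rule. The 300-base RefSeq promoters (250 bases before and 50 after a start) held the summit of 377 members, 13.4%, in 429 promoters of 32585. Chromosome 18, with 85 members, has no promoter among these and was not used here, and the strand of its genes was not known. These were rich in CpG: the median ratio of observed to expected CpG was 0.762, against 0.386 over all promoters, and the median GC content 62.3% against 53.0%. A ratio of at least 0.6 with a GC content of at least 50%, called CpG-rich here, was found in 71.8% (67.3 to 76.0%) of member promoters and 33.7% of all. Promoters with peaks of both diets had 75.5% (70.1 to 80.4%) and those of the deficient diet only 64.5%. Put the other way, 2.81% (2.51 to 3.13%) of CpG-rich promoters held a member summit and 0.56% (0.465 to 0.669%) of the other promoters did. GC content differed in the same direction. Protein-coding genes owned 80.7% of member promoters and 64.5% of all. The part of GC content or of gene class in these shares, or in the motif shares below, was not tested.

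**Figure D3:**
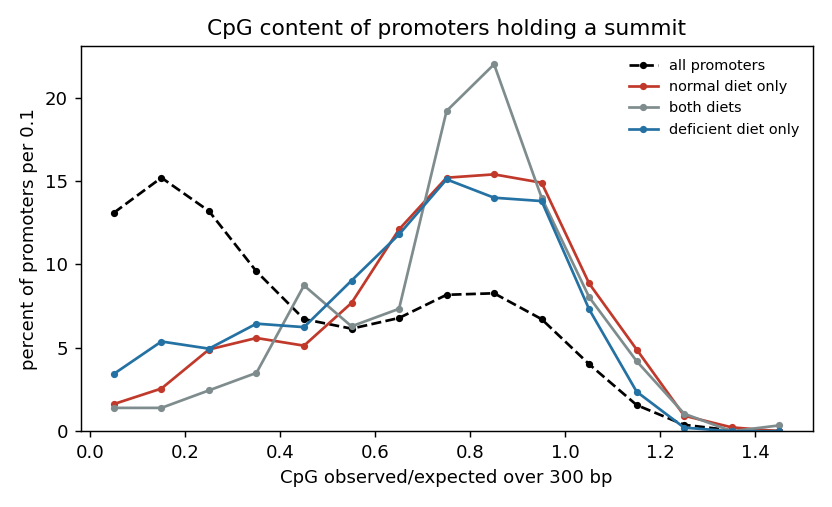
Percent of promoters (vertical) per 0.1 step of the observed to expected CpG ratio over 300 bp (horizontal) for all RefSeq promoters and for those holding a summit of each group. All promoters pile up at low ratios, with a median of 0.386, while member promoters centre on 0.762.

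Motifs were searched on both strands in the same 300 bases. Some of the 377 summits fell in more than 1 of the 429 promoters. Intervals for promoter shares, above and below, take each promoter as separate, so they may be too narrow. DR3, the classical VDR element, was searched with 3 bases between its hexamers. It was found in none of the 429 member promoters (interval up to 0.856%) and in 13 of all 32585, 0.0399%. As searched, it is too rare in this window for a count to tell groups apart. Only the 377 members in these promoters were covered, and the sequences under the peaks were not searched. Whether VDR elements lie under members was therefore not tested. The single hexamer AGGTCA was in 14.2% (11.1 to 17.9%) of member promoters and 16.2% of all, and AGTTCA in 7.46% (5.16 to 10.4%) and 13.9%. Among CpG-rich promoters alone the hexamers came to 11.7% (8.32 to 15.8%) against 9.31% and to 7.14% (4.53 to 10.6%) against 7.11%. In CpG-rich promoters the intervals for members thus included the shares of all.

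The ETS core CCGGAAG stood highest against all promoters. It was in 107 member promoters, 24.9% (20.9 to 29.3%), against 8.92% of all, and among CpG-rich ones in 29.9% (24.8 to 35.3%) against 19.2%. CpG-rich promoters with peaks of both diets had it in 25.5% (19.8 to 31.8%) and those of the deficient diet only in 24.3% (19.6 to 29.6%), intervals that overlap that of the members. The GC box GGGCGG, bound by Sp1 family factors, was in 52.4% (47.6 to 57.3%) of member promoters against 35.9% of all, but among CpG-rich ones in 62.0% (56.3 to 67.5%) against 75.8%. CpG-rich promoters with peaks of both diets had it in 66.2% (59.5 to 72.5%) and those of the deficient diet only in 71.0% (65.5 to 76.1%). CCAAT, bound by NF-Y, was in 39.0% (33.5 to 44.7%) against 35.3%. TATAAA was in 4.66% (2.87 to 7.11%) of all member promoters against 13.7%, and among CpG-rich ones in 3.57% (1.8 to 6.3%) against 4.57%.

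The GATA and T-box cores of heart factors were less frequent in member promoters than in all, but among CpG-rich promoters the intervals for members included the shares of all. The GATA core AGATAA was in 2.33% (1.12 to 4.24%) of member promoters against 11.2% of all, and among CpG-rich ones in 1.95% (0.718 to 4.19%) against 3.5%. Promoters with peaks of both diets had it in 2.1% (0.774 to 4.51%). Those of the deficient diet only had it in 7.1% (4.94 to 9.82%), and their CpG-rich ones in 5.33% (3.08 to 8.52%). The T-box core AGGTGT was in 8.62% (6.15 to 11.7%) of member promoters against 13.8% of all, and among CpG-rich ones in 7.47% (4.79 to 11%) against 9.14%. Promoters with peaks of both diets had it in 13.3% (9.58 to 17.8%) and those of the deficient diet only in 14.6% (11.5 to 18.2%). Both intervals overlap that of the members. The MEF2 core was in none of the member promoters and in 0.11% of all, too rare for a count to tell groups apart. The CTCF core was in 2.92% (1.34 to 5.47%) of CpG-rich member promoters and 2.66% of all CpG-rich ones. The cAMP response element TGACGTCA, the E box CACGTG, the YY1 core AAGATGGC, the NRF1 core and the ZBTB33 core, at 4.87%, 11.7%, 4.87%, 2.27% and 1.62% of CpG-rich member promoters, had intervals that covered the shares of all CpG-rich promoters. A match is a string of letters and was not shown to be bound.

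**Figure D4:**
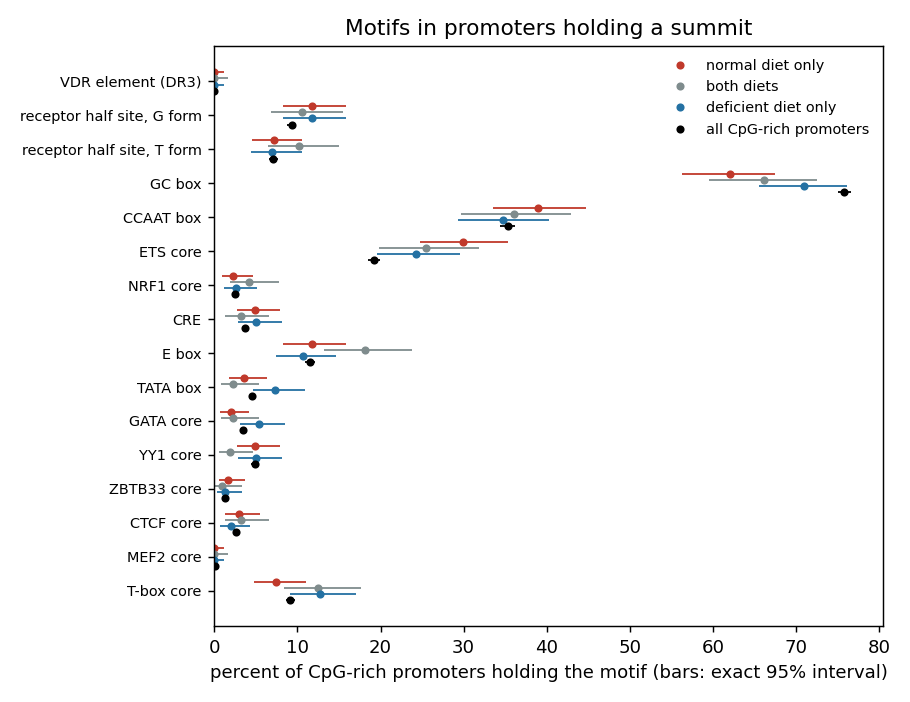
Percent of CpG-rich promoters holding each motif (horizontal, bars are exact 95% intervals) by motif (vertical), for promoters with a summit of each of 3 groups and for all CpG-rich promoters. The ETS core is at 29.9% with a member and 19.2% in all, the GC box at 62.0% and 75.8%.

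Genes were then grouped by function. Of the 18 genes of vitamin D signalling and metabolism, which include Vdr, the retinoid X receptors and the activating and degrading enzymes Cyp27b1 and Cyp24a1, none had a member (interval up to 18.5%), against 10.2% of all protein-coding genes. None of the 18 classical vitamin D targets had one either, nor any of 30 genes of cohesin, condensin, CTCF and the nuclear lamina (up to 11.6%), the machinery of chromosome folding. Gene-end peaks of the deficient diet only were at 2, 4 and 6 genes of these 3 lists, and peaks of both diets at 1, 2 and 3. With peaks of -log10 q of 5 or more alone, 2 genes of the chromosome folding list had a member. This cut also drops weaker deficient-diet peaks, so a gene can gain a member. With a 3-kb window 2 and 4 genes of the first 2 lists had one. Over all genes these settings gave 1752 and 5378 genes with a member, instead of 3238. In each of the 3 lists the interval for the main count includes the 10.2% of all protein-coding genes.

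The highest share of the 21 lists was at the proteasome, the cell's main protein-degrading complex, whose subunits had a member at 11 of 40 genes, 27.5% (14.6 to 43.9%), with a median -log10 q of 3.74 against 4.28 over all members. Among them Psmc3, an ATPase of the regulatory particle, had 25 fragments 109 bp from an end, Psma5 had 17 fragments 78 bp before the start and Psma7 19 fragments 748 bp before it. The deficient diet only had 5 of the 40, 12.5% (4.19 to 26.8%), and both diets 2. With peaks of -log10 q of 5 or more alone in both lists, 3 proteasome genes had a member, and 1752 genes of all kinds instead of 3238. This list was singled out as the highest of the 21. The 10.2% of all protein-coding genes is not matched for the CpG content of promoters. The part of CpG content in the share of this or any other list was not tested.

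Cytoplasmic ribosomal protein genes had a member at 13 of 81, 16% (8.83 to 25.9%), of which 10 were at the start. Rps6, of the small subunit, had 23 fragments 125 bp past its start, Rps7 had 21 at 545 bp and Rpl5 had 17 at 171 bp, while Rpl4 had 20 fragments 833 bp beyond its far end. The deficient diet only had 6 of the 81, 7.41% (2.77 to 15.4%). Mitochondrial ribosomal proteins had 12 of 78, 15.4% (8.21 to 25.3%), with 23 fragments 311 bp past the start of Mrps7, and respiratory chain and ATP synthase subunits 12 of 96, 12.5% (6.63 to 20.8%). In the last list 11 of 12 were at a start: Atp5e had 23 fragments 195 bp past it, Atp5g2 had 20 at 95 bp and Atp5j2 had 19 at 3 bp. Translation initiation factors had 8 of 55, 14.5%, with 19 fragments 259 bp past the start of Eif2b5, and histone genes 10 of 74, 13.5%. The deficient diet only had 13 of 78, 14 of 96, 10 of 55 and 14 of 74 genes of these last 4 lists. The intervals of all 5 lists for members include 10.2%.

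**Figure D5:**
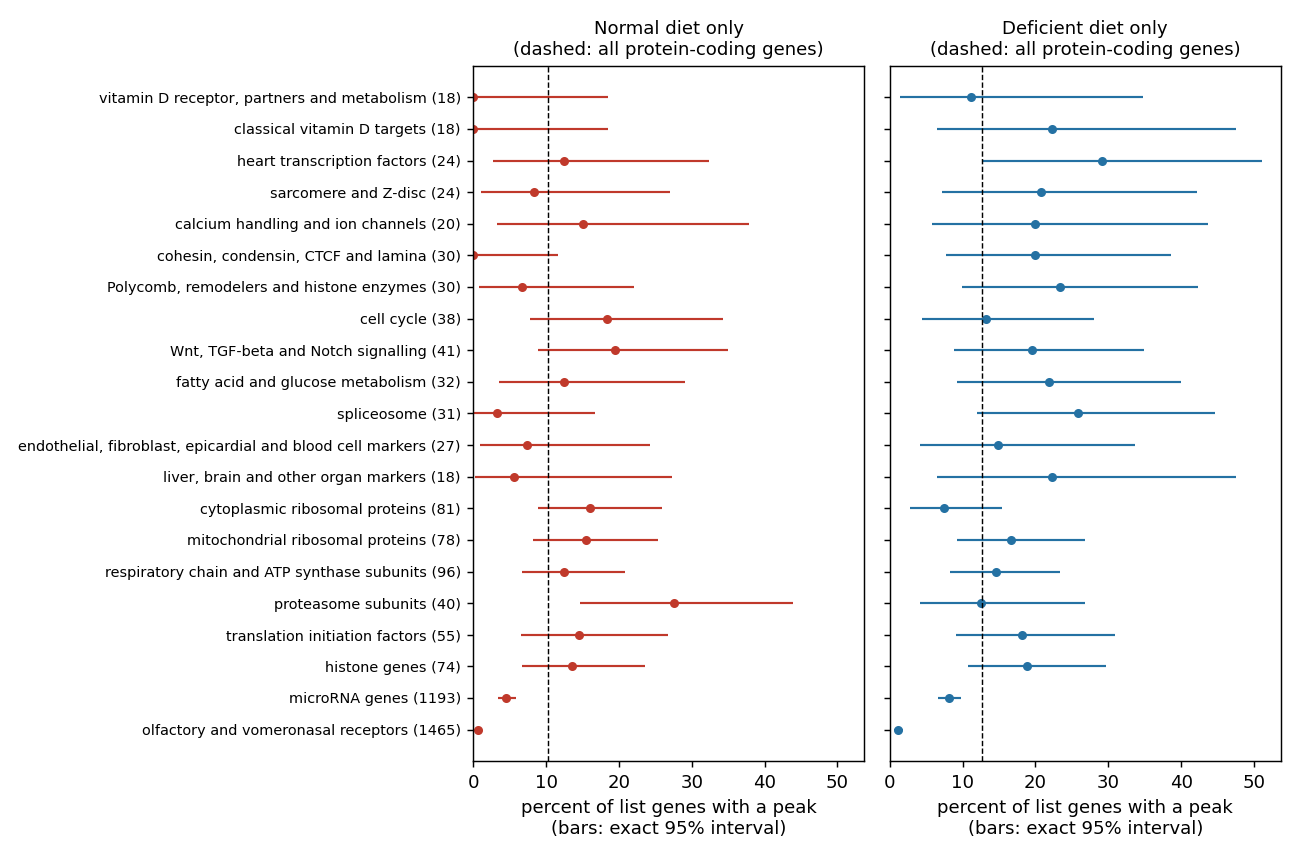
Percent of the genes of each of 21 lists (vertical, number of genes in brackets) with a gene-end peak of the normal diet only (left) or of the deficient diet only (right), with exact 95% intervals for counting error. The proteasome list stands at 27.5% on the left against a dashed line at 10.2% for all protein-coding genes, and 3 lists stand at 0.

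For the lists of heart genes the intervals were wide and included the 10.2% of all protein-coding genes. Of 24 heart transcription factors, 3 had a member, 12.5% (2.66 to 32.4%): Myocd, the cofactor that drives smooth and cardiac muscle genes, with 19 fragments 324 bp from an end, Gata6 with 19 fragments 389 bp from an end, and Foxp1 with 18 fragments 756 bp before its start. Deficient-diet peaks lay 3396, 1051 and 1502 bp from these 3, and with a neighbour distance of 5 kb none of the 24 had a member. Over all genes that setting gave 2587 with a member instead of 3238. The deficient diet only had 7 of the 24, 29.2% (12.6 to 51.1%). Sarcomere and Z-disc genes had 2 of 24, 8.33% (1.03 to 27%), and the deficient diet only had 5 of the 24, 20.8% (7.13 to 42.2%). The 2 were Myom1 of the M band, with 16 fragments 887 bp before its start, and Tnnc1. Tnnc1, cardiac troponin C, had 15 fragments 693 bp beyond its far end. Calcium and ion channel genes had 3 of 20, 15% (3.21 to 37.9%), and the deficient diet only had 4 of the 20, 20% (5.73 to 43.7%). The 3 included Kcnd2, a potassium channel of the transient outward current, with 21 fragments 144 bp past its start. They also included Hcn4, the pacemaker channel, with 15 fragments 394 bp beyond its far end.

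Signalling and cell cycle genes had somewhat higher counts, again with intervals that include 10.2%. Wnt, TGF-beta and Notch genes had 8 of 41, 19.5% (8.82 to 34.9%). The deficient diet only also had 8 of the 41, 19.5%, and both diets had 5, 12.2% (4.08 to 26.2%). Dll4, a Notch ligand of vessels, had 21 fragments 529 bp past its start, Tgfb1 had 21 fragments 846 bp before its start, Gsk3b, the kinase that marks beta-catenin for destruction, had 21 fragments 989 bp past its start, and Apc, its scaffold, had 19 fragments 710 bp from an end. With a neighbour distance of 5 kb 3 of the 41 remained, and with a window of 500 bp 2. Over all genes these settings gave 2587 and 2180 with a member instead of 3238. Cell cycle genes had 7 of 38, 18.4% (7.74 to 34.3%). Peaks of both diets and of the deficient diet only were each at 5 of the 38, 13.2% (4.41 to 28.1%). Among the 7 with a member, the cyclin-dependent kinase inhibitor Cdkn2c had 21 fragments 609 bp past its start. Another inhibitor, Cdkn2a, had 17 fragments 514 bp before its start. E2f1, a transcription factor of S phase entry, had 17 fragments 559 bp beyond its far end, and Ccne2, cyclin E2, had 14 fragments 649 bp from an end. Polycomb, remodeler and histone enzyme genes had 2 of 30, Hdac3 with 19 fragments and Arid2 with 13, and spliceosome genes 1 of 31, Prpf19, with 17 fragments 306 bp past the start.

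Energy metabolism genes had 4 of 32, 12.5% (3.51 to 29.0%). Ldhb, a lactate dehydrogenase subunit of the heart, had 24 fragments 388 bp past its start, Cs, citrate synthase, 14 fragments 535 bp past its start, Idh2 15 fragments inside its far end and Ppara, the fatty acid receptor, 13 fragments 500 bp beyond its far end. Of 27 markers of endothelial, fibroblast, epicardial and blood cells, 2 had a member, the endothelial genes Pecam1, with 17 fragments 97 bp from an end, and Cdh5, with 17 over a background 1.77 times the genome-wide value. Of 18 markers of other organs, 1 had one, Gfap, with 18 fragments 195 bp past its start. Olfactory and vomeronasal receptors, used mainly in sensory tissue, had 9 of 1465, 0.614% (0.281 to 1.16%). Peaks of both diets were at 7 and those of the deficient diet only at 16 of them, so few peaks of any group lay there.

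MicroRNA genes had a member near 54 of 1193, 4.53% (3.42 to 5.86%), below the 6.53% of all genes. These 54 genes shared 49 peaks, and the interval takes each gene as separate, so it may be too narrow. At a short gene the 1-kb windows of both ends overlap and cover fewer bases than at a longer gene. The part of this in the lower share was not tested. The deficient diet only had 8.05% of the microRNA genes, and it also had the higher share of protein-coding genes. The hairpins are short and many lie in or beside longer genes, so a peak here may belong to a host or neighbour. The 4 with the highest -log10 q were Mir688, Mir1941, Mir6376 and Mir6367, with pileups of 20, 21, 19 and 19. The first shares its peak with the start of Atp5g2 and the second with Krt80. Their mature sequences from RefSeq (GRCm38.p6) show what is encoded there, with the seed, bases 2 to 8, in capitals.
miR-688: uCGCAGGCgacuacuuauuc
miR-1941-5p: aGGGAGAUgcugguacagaggcuu
miR-1941-3p: cAUCUUAGcaguaucucccau
miR-6376: cAGUGUGGccaauuggagauua
miR-6367: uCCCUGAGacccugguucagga

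One member of 14 fragments, on chromosome 8 from 84208693 to 84208938, overlapped Mir27a and Mir24-2 and lay beside Mir23a, a cluster studied in muscle and vessels, with Mir3074-2 on the other strand. It was picked out after its values were seen, as the one peak near the most microRNA genes. Its -log10 q was 3.26 over a background of 3.0 fragments, and its summit lay 28 bp from an end of Mir27a, 29 bp from an end of Mir24-2 and 194 bp from one of Mir23a. The main arms have 3 different seeds.
miR-23a-3p: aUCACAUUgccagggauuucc
miR-27a-3p: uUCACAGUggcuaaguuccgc
miR-24-3p: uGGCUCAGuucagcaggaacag

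Over the 49 of 54 microRNA genes with a mature sequence there were 87 seeds, and no seed was shared by 2 of the genes.

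Among chromosomes, X stood apart. It had 23 members, and 15 of its 966 protein-coding genes had one, 1.55% (0.872 to 2.55%), while the autosomes ran from 8.0% on chromosome 14 to 13.5% (11.9 to 15.3%) on chromosome 11. On X, 0.725% of protein-coding genes had a gene-end peak of both diets and 5.49% (4.14 to 7.12%) one of the deficient diet only. The labels do not give the sex of the embryos.

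Values beside the limits of the rule were alike. Inside the 1-kb window, a peak 1000 bp from an end of Ecsit and one 999 bp from Mir6367 had 19 fragments each, and just outside, peaks near Gm32139 and 4732419C18Rik had 17 and 16. Just farther than 1 kb from a deficient-diet peak, at 1002 and 1003 bp, were members at Sox18 and Fam189a1 with 14 and 17 fragments. Just within it, at 1000 and 993 bp, were peaks at 2610027F03Rik and Gm46725 with 19 and 15.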

How the data were processed

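VDR ChIP-seq was deposited as 1 peak list per diet, 2 libraries in all. The files are on mm10 and in narrowPeak layout per the file headers, and MACS2 and SAMtools are named in the submitters' processing notes. Aligner, control, thresholds and versions are not given in the sources used here. The deposited fold enrichment (a ratio to local background), -log10 p and -log10 q are the authors' values and were used to describe, rank or filter peaks within each list and to recover pileups. Where end and score were joined by a point, the part before it was the end, and 1 line without a start was left out.

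Pileup and background were recovered by taking fold as pileup plus 1 over background plus 1 and p as the upper Poisson tail. Whole pileups returned the deposited -log10 p with an error of at most 0.00025. Each list's lowest background was taken as genome-wide. A pileup of about 16 fragments limits the precision of each peak.

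Gene spans (49550) and promoters came from RefSeq GRCm38.p6. Strand, taken from the promoter table, was known for 26793 genes. Exons were not used here. Members, gene lists and motifs were chosen with earlier results of these data known. Named were the 12 members of highest -log10 q, up to 4 genes per list, the 5 genes with the most members (the fifth, 1700026J14Rik, had 2 and is one of many), peaks at the rule's limits and 6 promoters. The NRF1, ZBTB33, CTCF and MEF2 cores were searched as fixed strings. Intervals are exact (Clopper-Pearson, 95%). Those for shares of genes take each gene as separate, though genes can share a peak, so they may be too narrow. The member rule and the pileup recovery were tested on simulated data. Python 3.11.15, scipy 1.17.1, pandas 2.3.3 and numpy 2.4.6 were used.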

Additional observations from a re-analysis of the deposited data

How the results depend on the processing

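No paired analysis was possible because there is a single library for each diet. For the same reason no library was left out. Over 8 quantities recomputed under the alternatives, 26 of 66 values moved beyond their interval or, for counts, by more than 1.5 times. The quantities include the number of members and the share of peaks without a neighbour, which the rule itself sets. At a -log10 q of 5 or more in both lists there were 1481 members at 1752 genes, 83.5% of normal-diet gene-end peaks instead of 59.6%, with a median -log10 q of 6.22 and fold enrichment of 5.01, and 96 list genes instead of 162. A 3-kb window gave 4473 members, 5378 genes, 71.3% at starts instead of 79.6%, and 288 list genes, and a 500-bp window 85.3% and 106. At the genome-wide background there were 1255 members and 1456 genes, 72.6% at starts, 67.3% next to a protein-coding gene instead of 73.0%, medians of 4.87 and 4.65, and 55% of gene-end peaks without a neighbour. A neighbour distance of 5 kb gave 83.2% at starts and 47.6% without a neighbour, and overlap by 1 bp 70.3% without. Leaving out no bin gave 57.1%, and leaving out bins of 5 or more peaks 62.9%, with 84.1% at starts. Protein-coding genes alone gave 81.6%. Fewer or more peaks enter by construction, and other causes were not tested. Over the 21 lists, 37 of 84 counts moved by more than 1.5 times, and the proteasome count ran from 3 to 14.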

Other observations

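Genes of small RNAs other than microRNAs also lay beside members. Of 408 transfer RNA genes, 22 had a member within 1 kb, 5.39% (3.41 to 8.05%), an interval that includes the 6.53% of all genes. At short genes, here and in the next paragraph, the windows of both ends overlap, so 6.53% is no matched share. For transfer RNA genes the share was 1.47% for peaks of both diets and 2.94% (1.53 to 5.08%) for the deficient diet only. The member at n-TYgta2, a tyrosine transfer RNA gene on chromosome 3, had 19 fragments, a summit 1 bp off the gene and, close by, 3 other transfer RNA genes. At n-TWcca5, for tryptophan, the pileup was 20, and at n-TDgtc10, for aspartate, 18. Small nucleolar RNA genes had a member in 3.66% (2.72 to 4.81%) and small nuclear RNA genes in 0.997% (0.479 to 1.83%).

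Of 63 ribosomal RNA genes, 7 had a member, 11.1% (4.59 to 21.6%), an interval that also includes 6.53%, and 9 had a peak of the deficient diet only. All 7 were 5S genes in the array on chromosome 8, with pileups from 17 to 27. The highest were 27 at n-R5s100 and 26 at n-R5s141 and n-R5s149. The 5S copies are nearly identical in sequence, so the copy a fragment came from is uncertain, and deficient-diet peaks lay 1508 bp from n-R5s141 and 1337 bp from n-R5s124.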
